A study of Homo sapiens with 6 samples.

Results

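The 10 genes described here encode the corepressor that KRAB domains recruit and the core of the machinery that writes and reads methylation of lysine 9 on histone H3 (H3K9). They are TRIM28, SETDB1, ATF7IP, SUV39H1, SUV39H2, EHMT1, EHMT2, CBX1, CBX3 and CBX5. They were chosen by gene symbol for their role in the pathway, with earlier results of these data known, and all 10 were found among the 18398 genes of the count table and passed the filter on low counts. RNA came from the human breast cancer cell line SUM159, of the triple-negative kind. One group of 3 libraries is labelled as control and carries the pLVX vector, a lentiviral plasmid. The other group of 3 libraries comes from stable cells that overexpress POGK from the same vector. The stated question was which genes POGK regulates, and POGK carries a KRAB domain. No label tells whether the stable cells are 1 clone or a pool. Nor does any label name the replicates as separate cultures, so the p-values here cover the spread among these 6 libraries alone, which may be technical.

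A KRAB domain on a DNA-binding protein recruits TRIM28 (also called KAP1), a large scaffold protein that brings enzymes to the bound site. SETDB1 is then guided there to add methyl groups to H3K9, and ATF7IP is its partner, which keeps SETDB1 in the nucleus and stabilises it. SUV39H1 and SUV39H2 methylate H3K9 at pericentromeric heterochromatin, and EHMT1 (GLP) and EHMT2 (G9a) work as a pair that methylates H3K9 in gene-rich chromatin. CBX5, CBX1 and CBX3 encode the heterochromatin proteins HP1 alpha, beta and gamma, whose chromodomain binds methylated H3K9. HP1 proteins also bind TRIM28, so reader, scaffold and enzyme sit in 1 complex.

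Total counts were 27645789 to 33689230 per library. POGK itself, the check of the labels, rose from 69.0 ± 7.58 to 768 ± 22.02 CPM (CPM is a gene's count relative to the library total, with totals scaled by the TMM method of edgeR, which assumes that most genes do not change; SD, n = 3 each), and reads of the introduced copy were not separated from those of the cells' own gene. Of 6 genes that mark a mesenchymal line all were present. With totals not scaled by TMM, they summed to 8995 to 10427 CPM in control and 5899 to 5926 CPM in POGK libraries. On the TMM scale 5 fell, among them VIM (1.78-fold), FN1 (3.17-fold) and SNAI2 (2.23-fold). Of 6 receptor and epithelial genes 4 were present, summing to at most 11.3 CPM, again with totals not scaled by TMM. On the TMM scale GATA3 fell 1.97-fold and FOXA1 rose 1.79-fold. ESR1 and EPCAM had 1 to 10 counts per library. Of the blood and vessel markers, PTPRC, CD14 and PECAM1 were in the table, with means of 0.53, 1.06 and 5.18 CPM in control and 1.66, 0.55 and 3.97 CPM in POGK cells; PGR, CDH1, CD3E, CDH5 and HBB are not analysed here. Control libraries differed from each other more than POGK libraries did. The median SD of log2 CPM over all genes tested was 0.19 in control and 0.06 in POGK cells, and it was larger in control for 82.9% of genes.

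Expression of 7 of the 10 genes rose in POGK cells, by edgeR's quasi-likelihood test at an adjusted p below 0.05: SUV39H1, SUV39H2, CBX5, EHMT1, CBX3, TRIM28 and CBX1. ATF7IP fell, and SETDB1 and EHMT2 did not pass. The 2 methyltransferase genes SUV39H1 and SUV39H2 had the largest changes, 3.12-fold and 2.56-fold, and the HP1 genes and TRIM28 rose 1.22-fold to 1.53-fold. In bulk RNA, a change in the number of cells of a kind and a change in RNA per cell cannot be told apart. Over all 15889 genes tested, 66.0% were called, 32.7% as higher and 33.3% as lower, so 8 called genes of 10 is close to the background. The 7 that were higher are 70% of the list, and its median log2 fold change was 0.37, against 0.0025 over all genes tested. Separate ranges in control and POGK libraries were found for 8 of the 10, 7 with POGK higher and 1 with POGK lower; of all genes 73.7% had groups that did not overlap, 36.8% with POGK higher and 36.8% with POGK lower. These directions are relative to the TMM scale, on which 5202 genes were higher and 5285 lower. On library size alone 6575 were higher and 3925 lower, and the median of all genes lay at 0.19. The authors' deposited table likewise has 7 of the genes higher and 1 lower.

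**Figure D1:**
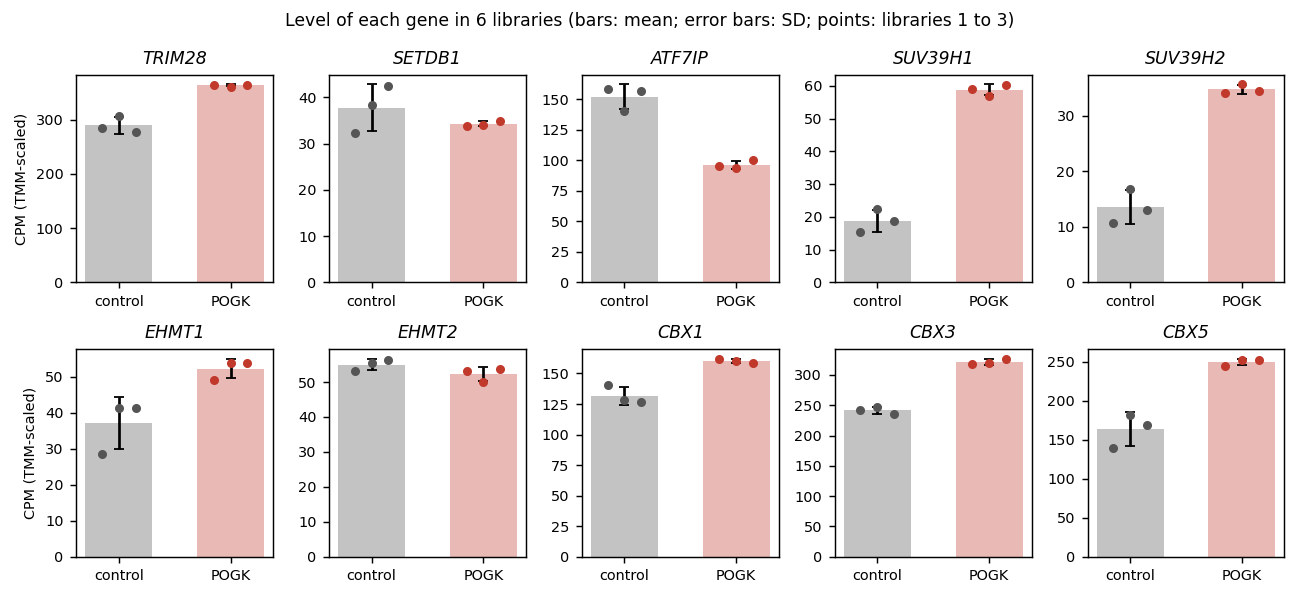
Level of each of the 10 genes in CPM, on linear axes that start at 0, in 3 control and 3 POGK libraries; bars are means, error bars SD, points single libraries. SUV39H1 and SUV39H2 have the largest fold changes (3.12 and 2.56), though not the largest differences in CPM, ATF7IP is the 1 gene with all POGK libraries below all control libraries, and SETDB1 and EHMT2 overlap.

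TRIM28 (ENSG00000130726) lies on hg38 chromosome 19, 58544064 to 58550722, plus strand. Its level was 284, 308 and 278 CPM in the control libraries and 364, 361 and 364 CPM in the POGK libraries. All POGK libraries were above all control libraries, and the highest POGK library was 1.01 times the lowest. It rose 1.25-fold, or 0.32 ± 0.07 (SE) on the log2 scale, with an adjusted p of 0.00296 in edgeR. A larger rise was found for 5293 of the genes tested. TRIM28 was the most abundant of the 10 genes per kilobase of exon, at 67.4 ± 3.61 CPM per kb in control cells.

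SETDB1 (ENSG00000143379; chromosome 1, 150926263 to 150964744, plus strand) stood at 32.4, 38.4 and 42.4 CPM in control libraries and at 33.8, 34.1 and 34.9 CPM in POGK libraries. The POGK values lay inside the control range. Its log2 fold change, -0.14 ± 0.10 (SE), had an adjusted p of 0.256 in edgeR. The lowest control value came from replicate 1, and without that library the log2 fold change was -0.23 and passed at an edgeR adjusted p of 0.0168. On library size alone it was 0.049 and did not pass. Some exons of SETDB1 overlap those of CERS2 on the other strand, and CERS2 fell from 356 ± 34.9 to 226 ± 1.32 CPM. The strand setting of the counting is not known, so reads of the overlap cannot be told apart.

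ATF7IP (ENSG00000171681; chromosome 12, 14365676 to 14502931, plus strand) was the gene that went the other way. It stood at 159, 140.3 and 157 CPM in control libraries and at 95.0, 94.0 and 100.2 CPM in POGK libraries. The groups did not overlap, and the lowest control value was in replicate 2. It fell 1.58-fold, or -0.66 ± 0.07 (SE) on the log2 scale, with an adjusted p of 7.90e-05 in edgeR. The log2 ratio of TRIM28 to ATF7IP per kb, which does not depend on scaling between libraries, was 2.54 ± 0.17 in control and 3.52 ± 0.04 in POGK cells. The log2 ratio of TRIM28 to SETDB1 went from 3.73 ± 0.22 to 4.18 ± 0.02. Both ratios, and that of TRIM28 to the sum of SETDB1 and ATF7IP, at 2.01 ± 0.15 and 2.82 ± 0.03, had groups that did not overlap. A two-sided exact permutation test gave p = 0.1, which is the smallest that 3 against 3 libraries allow, with an adjusted p of 0.1 over the 8 family quantities computed. The stretch before the first start of ATF7IP in RefSeq (GRCh38.p14, chr12:14365504-14365675, plus strand) is shown because this is the gene that fell; capitals mark CCAAT, a box bound by NF-Y, and TTTGAA, the cell cycle homology region, on either strand.
ATF7IP upstream: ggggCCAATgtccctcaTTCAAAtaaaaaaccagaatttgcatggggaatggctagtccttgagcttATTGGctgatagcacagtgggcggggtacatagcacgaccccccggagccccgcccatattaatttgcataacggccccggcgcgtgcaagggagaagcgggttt

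The pair of SUV39H genes rose most. SUV39H1 (ENSG00000101945; chromosome X, 48695554 to 48709016, plus strand) stood at 15.4, 22.3 and 18.7 CPM in control libraries and at 59.2, 57.0 and 60.3 CPM in POGK libraries. The lowest POGK library was 2.56 times the highest control library. The log2 fold change, 1.64 ± 0.12 (SE), had an adjusted p of 1.32e-05 in edgeR, and 416 of the genes tested had a larger rise. SUV39H2 (ENSG00000152455; chromosome 10, 14878820 to 14904315, plus strand) stood at 10.7, 16.9 and 13.1 CPM in control libraries and at 34.1, 35.7 and 34.5 CPM in POGK libraries. Here the lowest POGK library was 2.02 times the highest control library. The log2 fold change, 1.35 ± 0.15 (SE), had an adjusted p of 7.14e-05 in edgeR. For both genes control replicate 1 was the lowest library and control replicate 2 the highest.

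Within the pair, SUV39H1 took 60.6 ± 1.09% of the counts per kb of exon in control cells and 65.1 ± 1.11% in POGK cells, or 61.3, 59.3 and 61.2% against 65.7, 63.8 and 65.8%. The groups did not overlap (exact permutation p = 0.1, the smallest possible). The log2 ratio of SUV39H1 to SUV39H2 counts, chosen after the data were seen because its change needs no gene length, went from 0.48 ± 0.07 to 0.76 ± 0.07. RefSeq lists 2 starts for SUV39H1. The 250 bases before the first (chrX:48695304-48695553, plus strand) hold neither CCAAT nor TTTGAA on either strand and are not shown. The 250 bases before the start inside the gene (GRCh38.p14, chrX:48696484-48696733, plus strand) and the 92 bases outside annotated exons before SUV39H2 (chr10:14878728-14878819, plus strand) are shown because these are the members with the largest rises; the third line is 30 bases across the start of SUV39H2 (chr10:14878856-14878885). Capitals mark CCAAT or TTTGAA, and the second line holds neither.
SUV39H1 upstream: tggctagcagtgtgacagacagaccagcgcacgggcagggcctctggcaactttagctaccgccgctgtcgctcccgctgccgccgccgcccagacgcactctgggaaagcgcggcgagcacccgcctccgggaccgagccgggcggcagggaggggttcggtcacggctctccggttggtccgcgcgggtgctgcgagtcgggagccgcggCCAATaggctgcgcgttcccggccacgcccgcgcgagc
SUV39H2 upstream: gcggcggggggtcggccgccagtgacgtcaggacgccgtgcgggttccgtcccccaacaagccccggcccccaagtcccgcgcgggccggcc
SUV39H2 at its start: agaccgcgccagTTTGAAtgaaagctctac

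The EHMT pair did not move together. EHMT1 (ENSG00000181090; chromosome 9, 137618992 to 137870016, plus strand) stood at 28.7, 41.4 and 41.3 CPM in control libraries and at 49.2, 54.0 and 53.8 CPM in POGK libraries. Control replicate 1 was far below the other control libraries, and the groups did not overlap. EHMT1 rose 1.41-fold, or 0.49 ± 0.13 (SE) on the log2 scale, with an adjusted p of 0.00994 in edgeR. EHMT2 (ENSG00000204371; chromosome 6, 31879759 to 31897698, minus strand) stood at 53.1, 55.5 and 56.4 CPM in control and at 53.0, 49.9 and 53.7 CPM in POGK libraries. These ranges overlapped, and the log2 fold change, -0.07 ± 0.07 (SE), had an adjusted p of 0.357 in edgeR. On library size alone it was 0.12 and again missed the threshold. EHMT1 took 18.1 ± 2.58% of the pair's counts per kb in control and 24.8 ± 1.43% in POGK cells, with the lowest control value, 15.1%, in replicate 1 and no overlap between the groups. The log2 ratio of EHMT1 to EHMT2 counts, also chosen after the data were seen, went from -0.59 ± 0.26 to 0.0019 ± 0.11.

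The 3 HP1 genes all rose, by different amounts. CBX5 (HP1 alpha; ENSG00000094916; chromosome 12, 54230942 to 54280133, minus strand) stood at 139.5, 182 and 169 CPM in control and at 245, 252 and 252 CPM in POGK libraries. Every POGK library was at least 1.35 times the highest control library. It rose 1.53-fold, or 0.61 ± 0.10 (SE) on the log2 scale, with an adjusted p of 5.57e-04 in edgeR. CBX3 (HP1 gamma; ENSG00000122565; chromosome 7, 26201162 to 26213607, plus strand) stood at 242, 247 and 236 CPM in control and at 317, 320.3 and 327 CPM in POGK libraries. It had the narrowest control range of the 10 genes, with the highest library 1.05 times the lowest. It rose 1.33-fold, or 0.41 ± 0.06 (SE) on the log2 scale, with an adjusted p of 4.94e-04 in edgeR. CBX1 (HP1 beta; ENSG00000108468; chromosome 17, 48070052 to 48101478, minus strand) stood at 140.2, 128 and 126 CPM in control and at 162, 161 and 159 CPM in POGK libraries. It rose 1.22-fold, or 0.29 ± 0.07 (SE) on the log2 scale, with an adjusted p of 0.00487 in edgeR. CBX1 differed from the other HP1 genes in its highest control library, which was replicate 1, where it was replicate 2 for CBX3 and CBX5.

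Summed over the HP1 genes, the level went from 536 ± 18.2 to 732 ± 6.60 CPM. Within the sum, the order CBX3, CBX1, CBX5 per kb of exon was the same in both groups. The share of CBX1 was 41.6 ± 1.96% in control and 38.8 ± 0.60% in POGK cells, and that of CBX5 10.5 ± 1.44% and 12.2 ± 0.16%. Neither pair of groups overlapped (exact permutation p = 0.1, the smallest possible). Control replicate 1 weighed on both differences: without it, the difference of -2.73 percentage points for CBX1 was -1.63 and that of 1.78 points for CBX5 was 0.96. The CBX5 difference was 3.74 points with counts not divided by length and 3.72 with coding length. CBX3 took 48.0 ± 0.54% and 48.9 ± 0.51%, a difference of 0.94 points that turned to -1.11 and -1.10 under the same alternatives. Log2 ratios of counts, chosen after the data were seen, need no length: CBX5 over CBX3 went from -0.57 ± 0.19 to -0.36 ± 0.02, CBX5 over CBX1 from 0.31 ± 0.27 to 0.64 ± 0.04, and CBX3 over CBX1 from 0.88 ± 0.08 to 1.00 ± 0.04. None of these 3 ratios had overlapping groups. CBX3 has 10 pseudogenes named after it in the annotation, 2 of them in the table, and CBX1 has 5, so reads could be split between copies and single values are uncertain. Shown here are 59 bases before the first start of CBX5 (GRCh38.p14, chr12:54280134-54280192, minus strand) and 30 bases across a start of CBX3 (chr7:26201428-26201457, plus strand), with CCAAT and the E2F word TTTGGCGC in capitals on either strand.
CBX5 upstream: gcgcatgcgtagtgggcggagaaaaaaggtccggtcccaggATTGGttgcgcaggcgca
CBX3 at its start: cggagtccggtTTTGGCGCcagccgctgag

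**Figure D2:**
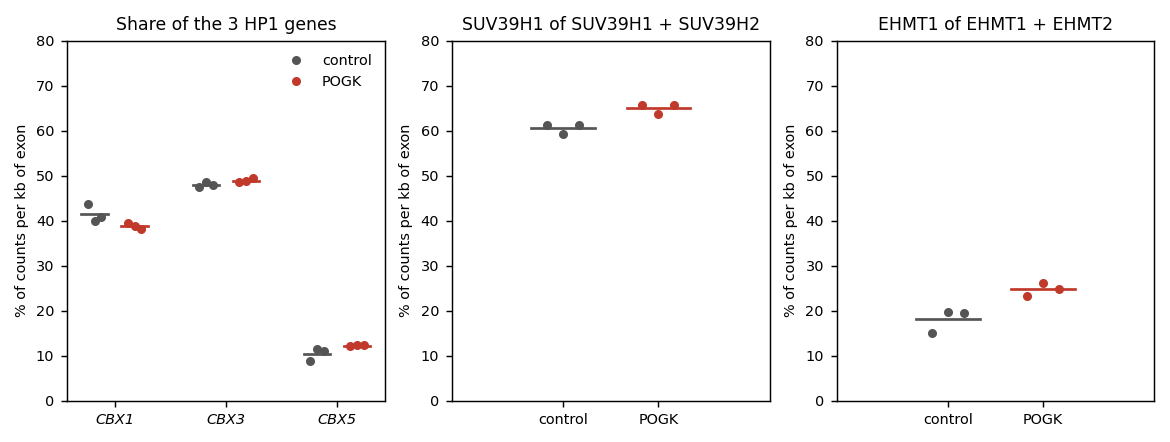
Share of counts per kilobase of exon, in percent, for each HP1 gene, for SUV39H1 within the SUV39H pair and for EHMT1 within the EHMT pair; points are libraries, lines are means. The shares of CBX5, SUV39H1 and EHMT1 are higher in all POGK libraries and that of CBX1 is lower; the CBX3 difference of 0.94 points changes sign with other lengths.

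Levels can be compared between genes only per length. In control cells the order of CPM per kb of exon was TRIM28 (67.4), CBX3 (49.9), CBX1 (43.2), ATF7IP (11.6), CBX5 (10.9), EHMT2 (7.53), SUV39H1 (5.82), SETDB1 (5.12), SUV39H2 (3.802) and EHMT1 (1.67). The control ranges of ATF7IP and CBX5 overlapped, as did those of SUV39H1 and SETDB1 and of SETDB1 and SUV39H2. In POGK cells SUV39H1, at 18.2, stood above CBX5, at 16.6, and SUV39H2, at 9.75, stood above ATF7IP, at 7.34. The only neighbours whose POGK ranges overlapped were ATF7IP and EHMT2, at 7.15. The order depends on the length used: EHMT1 has 22188 exon bases over all transcripts and 7842 in its longest. Per kb of the longest transcript, CBX3, at 113, stood above TRIM28, at 86.2, in control cells. EHMT1, at 4.73, stood above SUV39H2, at 4.39, there, though the ranges of this pair overlapped. By the same length in POGK cells, CBX5, at 21.6, stood above SUV39H1, at 19.8, and their ranges did not overlap. SUV39H2, at 11.3, and ATF7IP, at 10.9, had overlapping ranges.

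**Figure D3:**
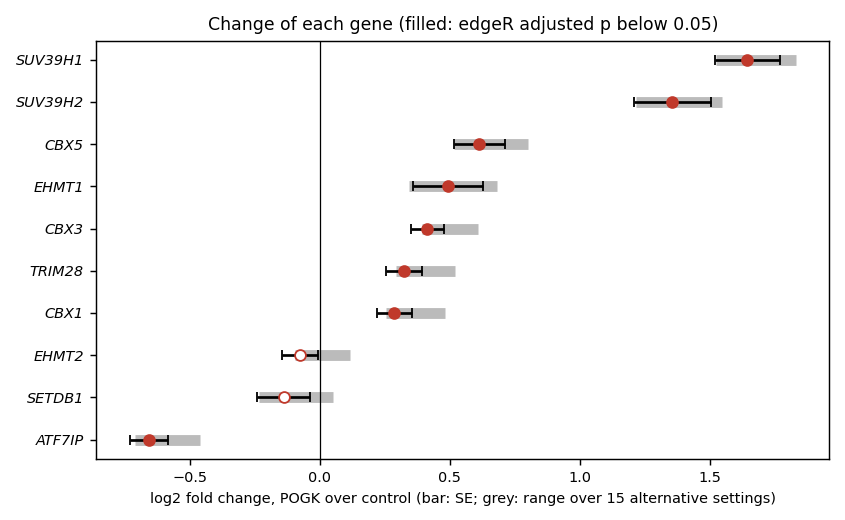
Log2 fold change of POGK over control for each gene with its standard error; filled points passed the edgeR test at an adjusted p below 0.05, and grey bars span the 15 alternative settings. The 7 genes that rose and ATF7IP stay on their side of 0 throughout, while EHMT2 and SETDB1 cross it with library size alone.

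The control libraries did not lie at 1 level, and some of the 10 genes had the same order of these libraries. Expressed as log2 CPM minus the gene's mean over the 6 libraries, SUV39H1 lay at -1.10, -0.57 and -0.82 in control replicates 1, 2 and 3, and SUV39H2 at -1.003, -0.35 and -0.71. CBX5 lay at -0.53, -0.15 and -0.25, with the same order of libraries. The mean of 20 proliferation and S phase genes lay at -0.79, -0.30 and -0.66 in control and at 0.59, 0.57 and 0.59 in POGK libraries, again in that order. Of those 20 genes 18 rose, 1 fell and 1 did not pass, and the median log2 change was 1.14. The share that rose was 90%, against 32.7% of all genes tested. CDC6, which loads the replicative helicase, rose 4.36-fold, and its subunits MCM6 and MCM2 rose 3.19-fold and 2.82-fold. The gene that fell, CDT1, named after its values were seen, had a log2 fold change of -0.22 and was not called with library size alone or without any 1 of the POGK replicates. The part of these genes in the rise of the SUV39H, EHMT1 and HP1 genes was not tested. EHMT1 also had this order, at -0.61, -0.08 and -0.08, with replicates 2 and 3 nearly level. ATF7IP had the reverse order, at 0.39, 0.21 and 0.38, and SETDB1, EHMT2, CBX1, CBX3 and TRIM28 had neither. How many of all genes tested had either order is not given here. In 9 of the 10 genes the coefficient of variation was larger in control than in POGK cells; EHMT2 was the exception.

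**Figure D4:**
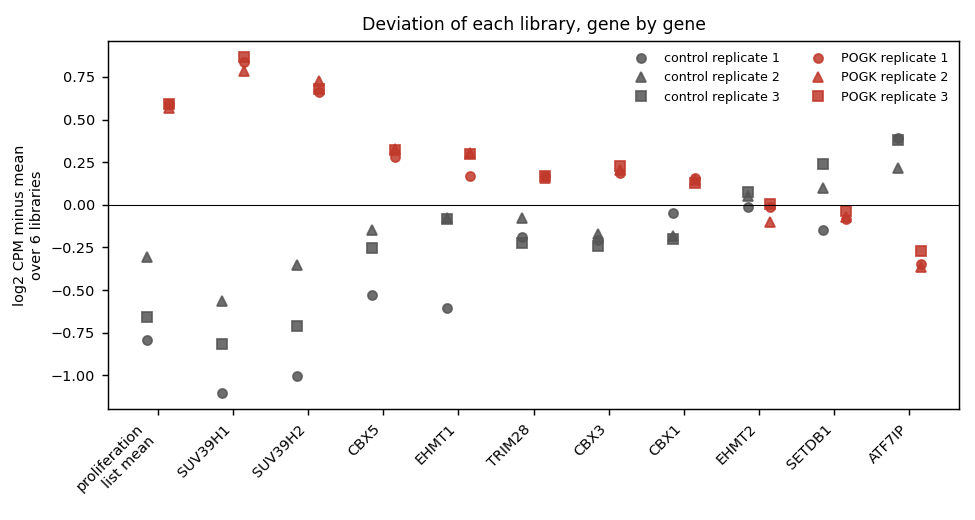
Log2 CPM of each library minus the mean over all 6 libraries, for the mean of the proliferation list and for each of the 10 genes; grey marks control, red POGK, and the marker shape gives the replicate. In SUV39H1, SUV39H2, CBX5, EHMT1 and the proliferation list the control libraries stand in the same order, with replicate 1 lowest and replicate 2 highest.

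Other genes of the pathway were counted from lists drawn up by role. Of 12 TRIM28 relatives and partners of SETDB1, 7 rose, 3 fell and 2 did not pass, and the median log2 change was 0.54. Here 83.3% were called and 58.3% were higher, against 66.0% and 32.7% of all genes tested. The HUSH complex works with SETDB1 in silencing: its subunit PPHLN1 rose 1.70-fold and its effector MORC2 rose 1.61-fold, at edgeR adjusted p-values of 2.96e-04 and 1.63e-04. TASOR, the HUSH scaffold, rose 2.09-fold and MPHOSPH8, the subunit that binds H3K9 methylation, lay at -0.18 on the log2 scale (edgeR adjusted p = 0.0505); both were named after their values were seen. The 3 that fell were DAXX, a histone chaperone, at 1.35-fold, and SETDB2 and TRIM66, the latter 2 named after their values were seen. On library size alone 1 of the 12 fell, against 3925 of all 15889 genes tested.

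Among partners of EHMT1 and EHMT2 and other readers or chaperones tied to H3K9 methylation, 16 genes were tested. Of these, 8 rose, 3 fell and 5 did not pass, with a median of 0.40. That is 68.75% called, close to the 66.0% of all genes tested. By direction, 50% were higher and 18.75% lower, against 32.7% and 33.3% of all genes tested. UHRF1, which links H3K9 methylation to maintenance of DNA methylation, rose from 16.6 ± 5.00 to 65.3 ± 1.59 CPM. Its relative UHRF2 fell from 75.9 ± 5.55 to 34.6 ± 0.89 CPM. CHAF1B, a subunit of the chromatin assembly factor that places histones behind the replication fork, rose 3.02-fold. The other 2 that fell, KMT5C and CDYL, had log2 fold changes of -0.62 and -0.27 and were named after their values were seen.

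On the TMM scale the enzymes that remove methyl groups from H3K9 leaned the other way. Of 11 demethylase genes 3 rose, 6 fell and 2 did not pass, and the median log2 change was -0.24. KDM4B fell from 92.4 ± 11.2 to 42.3 ± 0.71 CPM, KDM4C fell 1.87-fold and KDM7A fell 1.94-fold, all with edgeR adjusted p-values of at most 1.09e-04. The 3 that rose were KDM1A, PHF8 and KDM3B, at 1.51-fold, 1.39-fold and 1.28-fold, named after their values were seen. Scaled by library size alone, 4 rose and 3 fell, where 6575 of all 15889 genes tested rose and 3925 fell. Without control replicate 2 the number that rose was 5. The number that fell was 5 without POGK replicate 1 and 4 without POGK replicate 2 or 3. On the TMM scale with all libraries, 54.5% of the 11 genes were called lower, against 33.3% of all genes.

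NuRD, a deacetylase complex that TRIM28 also binds, had 6 of 14 genes higher and 3 lower, with a median of 0.10. The share called, 64.3%, was close to the 66.0% of all genes tested. By direction, 42.9% were higher and 21.4% lower, against 32.7% and 33.3% of all genes tested. RBBP4 and RBBP7, histone-binding subunits, rose 1.58-fold and 1.52-fold, and MBD3 rose 1.61-fold. The lower ones, MTA1, MTA3 and GATAD2B, were named after their values were seen. In the SUMO pathway, which modifies TRIM28 and so helps it to bring in SETDB1, 10 of 15 genes rose and 3 fell, with a median of 0.32. There 86.7% were called and 66.7% were higher, against 66.0% and 32.7% of all genes tested. SAE1, a subunit of the SUMO activating enzyme, rose 1.58-fold and the SUMO protease SENP3 rose 2.14-fold, while SENP7, a SUMO protease known to bind HP1, fell 1.80-fold. The other 2 that fell were PIAS1 and SUMO2, named after their values were seen. Only 1 gene of the SUMO list fell on library size alone, and again without POGK replicate 2. ZNF-named genes, among them many KRAB zinc finger genes whose products recruit TRIM28, had 86 of 395 higher (21.8%) and 141 lower (35.7%), and the median log2 change was -0.12. Over all genes tested 32.7% were higher and 33.3% lower. Scaled by library size alone, 116 of the ZNF-named genes were higher and 91 lower. On that scale 6575 of all 15889 genes tested were higher and 3925 lower. The labels and the table do not say which of the ZNF-named genes carry a KRAB domain.

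**Figure D5:**
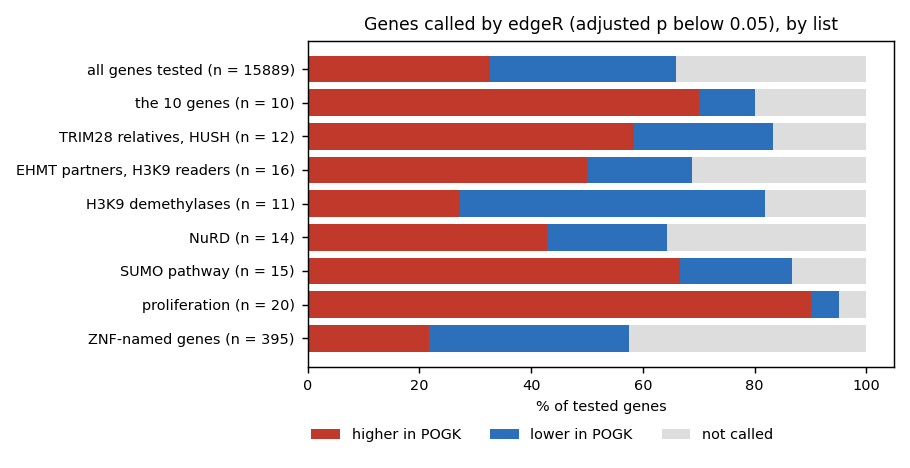
Percent of tested genes called higher, lower or not called by edgeR at an adjusted p below 0.05, for all genes tested, the 10 genes and the related lists, with the number tested in each. The proliferation list has the largest share of higher genes (90%) and the H3K9 demethylases the largest share of lower genes (54.5%).

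Several of the 10 genes share a start region or exons with a neighbour. SUV39H2 and the divergent noncoding transcript SUV39H2-DT start 93 bases apart on opposite strands, and they moved in opposite directions. SUV39H2-DT stood at 2.94, 2.07 and 1.65 CPM in control and at 0.87, 0.75 and 0.78 CPM in POGK libraries, or -1.46 on the log2 scale (edgeR adjusted p = 9.06e-04). CBX5 and HNRNPA1, the gene of an abundant splicing factor, start 60 bases apart and also moved apart. HNRNPA1 fell from 1860 ± 197 to 1136 ± 3.36 CPM, with all POGK libraries below all control libraries. CBX3 and HNRNPA2B1 start 367 bases apart and both rose, HNRNPA2B1 from 720 ± 149 to 1448 ± 9.11 CPM. Some of their exons overlap on opposite strands, so reads of the overlap cannot be told apart without the strand setting. EHMT1 and ARRDC1-AS1 start 86 bases apart and both rose, ARRDC1-AS1 by 1.76-fold. DCLRE1C overlaps exons of SUV39H2 on the other strand and rose 1.61-fold, at 7.52 ± 2.78 CPM in control cells. It did not pass without control replicate 3 or POGK replicate 1 or 2. Reads of the overlap of SUV39H2 and DCLRE1C cannot be told apart without the strand setting either. C2, which starts 87 bases from EHMT2, had 3 to 11 counts per library and was not tested.

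The promoter table of RefSeq held 18 windows of 250 bases before to 50 after a start for 9 of the 10 genes. Words of the E2F consensus (TTTGGCGC, TTTCCCGC, TTTCGCGC and TTTGCCGC, both strands) were found in the window of CBX3 only, 4 bases before the start. Of all 35116 windows 3.31% hold one, and of all 27305 genes 3.99% have such a window. TTTGAA, found on either strand, was in windows of ATF7IP and SUV39H2, in 15.2% of all windows and in windows of 18.2% of all genes. CCAAT was in windows of ATF7IP, CBX5 and SUV39H1, in 34.6% of all windows and in windows of 39.7% of all genes. ATF7IP and CBX5 each have several of the 18 windows. A gene with more windows is likelier to hold a word in any of them, so the shares of genes are not a like background. A match is a description of the letters in a window.

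By the root mean square difference of log2 CPM deviations over the 6 libraries, among 12963 other protein-coding genes, the genes most like TRIM28 were OSTF1, POFUT1 and NIBAN2, at 0.02 each. Those most like SUV39H1 were TUBB6, AIFM1 and CARD6, at 0.04, 0.05 and 0.06, and those most like SUV39H2 were MFSD14B, FIGNL1 and TRMT10C, at 0.03, 0.04 and 0.05. For ATF7IP they were SNX27, CRTC2 and GPR107, at 0.03 each. For CBX5 they were B3GNTL1, TAF2 and DCAF15, for CBX3 RAP1B, STUB1 and GLO1, and for CBX1 MAPRE2, PSMB1 and BCL7C, all at 0.02. For EHMT1 they were SLC9A2, ASB13 and UBR1, for EHMT2 STRN4, SH3GLB2 and RNF103, and for SETDB1 SMIM19, MLLT10 and FAM76A, at 0.02 to 0.04.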

How the data were processed

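The members and gene lists were chosen with earlier results of these data known. Raw read counts per Ensembl gene for 6 libraries were deposited by the authors. Per the labels' protocols, RNA was depleted of ribosomal RNA and reads were aligned to hg38. Per the submitters' processing notes, Trimmomatic, STAR, SAMtools, deepTools and featureCounts were used. For the annotation and the strand setting, nothing is given in the sources used here. Normalized values (unit signal), in each library the count divided by 1 factor, were deposited too and were not used. Per the file headers, the table also holds the authors' log2 fold change, its test score and p-values, from which only the calls credited to them were taken.

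Counts were tested with edgeR 4.0.16 (R 4.3.3): TMM scaling, filterByExpr for low counts, a robust quasi-likelihood fit and Benjamini-Hochberg adjustment over 15889 genes. Standard errors come from the F statistic. Pairs of libraries of 1 group differed by a chi-square of 22.5 to 49.7 per gene in control and 1.36 to 2.62 in POGK cells. All 6 libraries were kept. One spread per gene was fitted to both groups. Exon lengths and positions come from GENCODE release 44 on hg38, which matched 18264 of 18398 identifiers. Log2 ratios of paralogs were chosen after the data were seen. Shares were compared with two-sided exact permutation tests. Alternatives were DESeq2 1.42.0, limma-voom (limma 3.58.1) without and with a weight per group, other scalings and filters, a fit of protein-coding genes alone, a block for the replicate number, and each library left out. The scripts were tested on simulated counts. Named genes were the 10 members, POGK, the 3 genes with the smallest adjusted p of each other list, neighbours that overlap a member or start within 1000 bases, and the 3 genes of most similar pattern per member.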

Additional observations from a re-analysis of the deposited data

How the results depend on the processing

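Of the 10 genes, the 7 that rose and ATF7IP kept direction and call in all 15 alternatives. The cause of the exceptions below was not tested. With library size alone, SETDB1 turned to 0.049 and EHMT2 to 0.12 on the log2 scale, neither called. The lists then had 1 lower gene (TRIM28 relatives and partners of SETDB1), 3 (demethylases), 1 (SUMO), 0 (proliferation) and 91 (ZNF-named). Of all 15889 genes tested, 3925 were lower and 6575 higher on that scale. With 1 library left out, lower members numbered 1 to 2. SETDB1 then lay between -0.23 (passing, without control replicate 1) and -0.049 (without control replicate 3). Higher demethylases numbered 3 to 5, lower demethylases 4 to 6, lower SUMO genes 1 to 3 and lower proliferation genes 0 to 1. With raw counts the differences in share were -1.11 points for CBX3, 3.74 for CBX5 and 10.02 for EHMT1, and with coding length -1.10, 3.72 and 9.80. Deviations of same-numbered libraries from their group means correlated at 0.087, 0.041 and 0.0028. The POGK libraries differed little from each other, with a chi-square of 1.36 to 2.62 per gene. These correlations therefore cannot tell whether the replicate numbers pair the libraries. With the replicate number as a block, the members called were again 7 higher and 1 lower, and 5136 genes were higher and 5103 lower overall. The lowest count of a member in any library was 266 (SUV39H2), and whether more depth or more libraries would change the calls was not tested.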
